A study of Mus musculus with 6 samples.

Results

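The transcription factors that commit a thymic progenitor to the T cell lineage were followed in DN3 thymocytes with and without a miR-185 transgene. The 10 factors were chosen by name: Tcf7, Lef1, Gata3, Bcl11b, Runx1, Runx3, Myb, Ets1, Ikzf1 and Ikzf3. Every probe of the deposited probe table that carries a factor's symbol, or an older symbol that belongs to no other gene, was taken, which gave 29 of 45281 probes. Older names that other genes share were not used. Of the 29 probes, 22 from 9 of the 10 factors entered the tests, since 3 or more of the 6 arrays detected them at a detection p under 0.05, and Runx3 had no such probe.

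RNA came from 3 samples of miR-185 Tg mice and 3 samples of wild-type mice, all C57BL/6, each hybridised to 1 Illumina MouseWG-6 array on a single chip. The cells were thymocytes sorted for CD25 and against CD44, CD4, CD8, B220, NK1.1, the gamma-delta T cell receptor, CD11b and CD11c. No treatment, time course or other allele is named for either group. The labels give neither the promoter of the transgene, nor the number of founder lines, nor the age or number of the mice behind a sample, so a p-value here speaks of the variation among 6 samples, whose source, mice or handling, is not stated. Every value below is a normalised log2 intensity of 1 probe, and levels of different probes or genes are not set against each other, since probes differ in brightness.

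T lineage commitment begins when Notch signals switch on TCF-1 and GATA3, and is completed when BCL11B is switched on before the DN3 stage. RUNX1, MYB, ETS1 and Ikaros are present from earlier progenitors onwards and work at enhancers of the T cell receptor, CD3 and recombination genes. At the DN3 stage, cells that have rearranged a beta chain pass beta-selection, after which LEF1 and Aiolos are known to increase. RUNX3 is best known from the CD8 and innate lineages. The small RNA that distinguishes the groups is shown for orientation, as the mouse Mir185 hairpin of RefSeq (GRCm38.p6, chr16:18327401-18327465, minus strand) and the arm that the table lists, with the seed, bases 2 to 8, in capitals. No other arm of the hairpin is listed there, and the labels do not say which arm the transgene raises. The arrays do not measure the small RNA.
Mir185 hairpin: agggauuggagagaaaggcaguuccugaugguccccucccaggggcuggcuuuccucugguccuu
mmu-miR-185-3p: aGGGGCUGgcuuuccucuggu

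None of the 9 measured factors passed the test between miR-185 Tg and wild-type cells. In limma over 12426 genes, 0 of 9 passed at an adjusted p under 0.05, against 4.23% of all genes (2.55% higher and 1.68% lower in Tg cells), and 0 of 9 had an unadjusted p under 0.05, against 20.0% of all genes. The log2 fold change was negative for 6 factors and positive for 3, with a median of -0.13, beside a median of -0.0014 over all genes. The groups overlapped for all 9 factors, while they did not overlap for 28.2% of all genes. Exact two-sided permutation tests of 3 against 3 gave p-values from 0.2 to 1 for the 9 factors, where 0.1 is the smallest p the design allows. The factors were not steadier than other genes from array to array: the median range over the 6 arrays was 0.87 for the 9 factors and 0.88 for all genes. With arrays weighted by their scatter, 4472 of the 12426 genes passed in limma. Under that weighting 3 of the 9 factors did, Lef1 at -0.89, Myb at 0.61 and Ikzf3 at -0.54. In sorted bulk samples, fewer cells with a transcript and less of it per cell cannot be told apart.

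**Figure D1:**
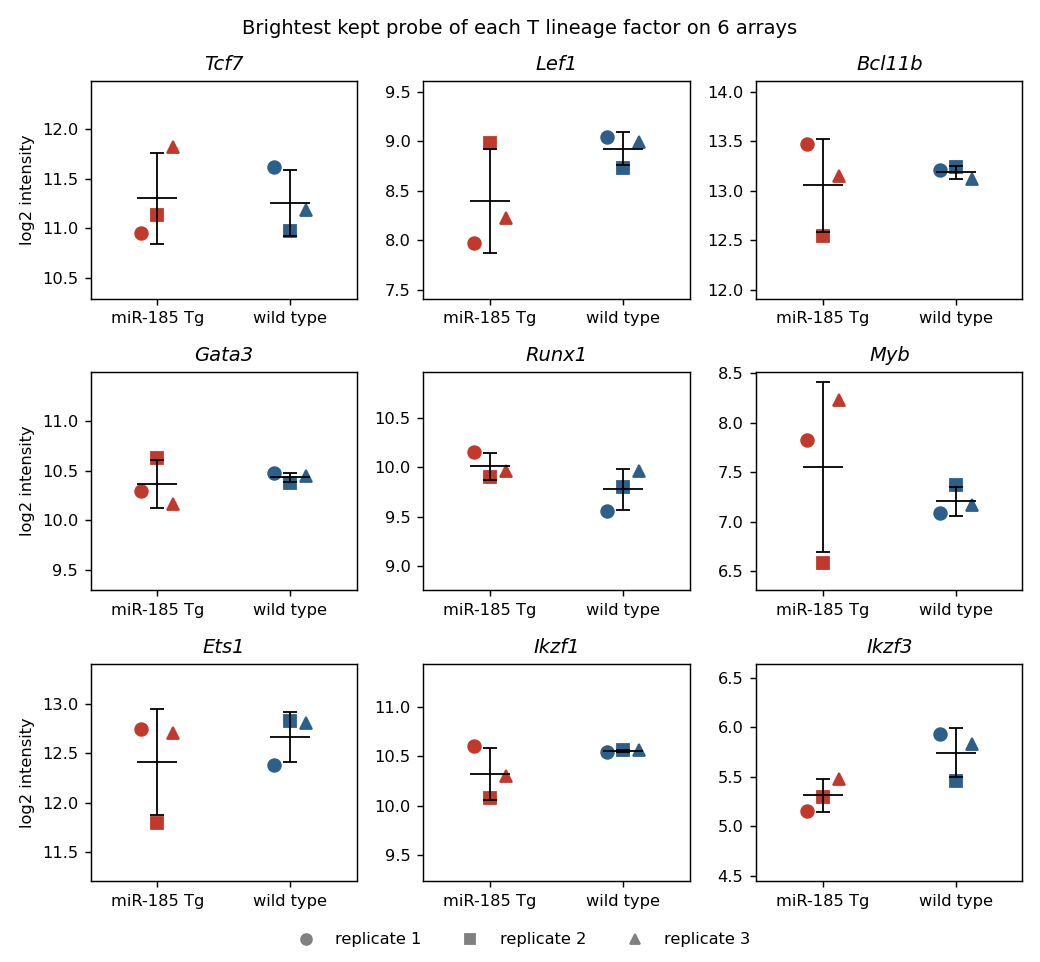
Normalised log2 intensity (vertical axis, the same span of 2.2 in every panel) of the brightest kept probe of 9 T lineage factors in miR-185 Tg (red) and wild-type (blue) DN3 cells; each symbol is 1 array, the horizontal bar is the group mean and the error bar the SD of 3 arrays. The groups overlap in every panel, and Tg 2 lies apart from Tg 1 and Tg 3 for Lef1, Bcl11b, Myb and Ets1.

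The array Tg 2 stood apart from the other 5 arrays, and this touches most of the values that follow. The first principal component over all tested genes held 45.6% of the variance, with scores of -65.08 for Tg 2 and of -5.82 to 23.9 for the others. Wild type 2 and wild type 3 were the closest pair (r = 0.997 across genes, against at most 0.990 for any other pair). Tg 2 was the highest or the lowest of the 6 arrays for 5 of the 9 factors and for 60.6% of all genes. The SD of the 3 Tg arrays exceeded that of the 3 wild-type arrays for 7 of the 9 factors and for 81.1% of all genes. Each array had 17879 to 18913 detected probes, and the bead-to-bead SE of a factor's probe was 1.76% to 7.92% of its intensity, from 21 to 67 beads. The number of arrays limits the precision.

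Tcf7 encodes TCF-1, the HMG-box factor that opens the T cell programme. Its brightest probe had log2 intensities of 10.95, 11.13 and 11.83 in Tg 1, 2 and 3, against 11.62, 10.97 and 11.18 in wild type 1, 2 and 3. One array of each genotype, Tg 3 and wild type 1, was high, and the other arrays lay lower and close together. Its log2 fold change was 0.047 ± 0.26 (SE; 95% interval -0.56 to 0.66; adjusted p = 0.95, limma), which leaves room for anything from 0.676-fold to 1.58-fold. The other Tcf7 probe had 11.11, 10.90 and 12.03 in Tg cells, against 11.57, 11.05 and 10.88 in wild type. Tg 3 and wild type 1 were again the highest arrays of their groups, so the array-to-array pattern was shared by both probes. Their log2 values, each centred on its own mean, differed by a root mean square of 0.19, smaller than the root mean square of either pattern (0.33 and 0.41).

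Lef1 encodes LEF-1, the close relative of TCF-1 that binds the same DNA motif and partners beta-catenin. It had the most negative log2 fold change of the 9 factors. Its brightest probe had 7.97, 8.98 and 8.23 in Tg 1, 2 and 3, against 9.05, 8.73 and 8.998 in wild type. Tg 1 and Tg 3 lay below every wild-type array, while Tg 2 lay within the wild-type range. As a log2 fold change this was -0.53 ± 0.29 (SE; 95% interval -1.20 to 0.14; adjusted p = 0.36, limma). The other kept Lef1 probe had 6.64, 7.50 and 6.41 in Tg cells, against 7.68, 7.53 and 7.87 in wild type, so that the groups did not overlap, although Tg 2 and wild type 2 nearly met. Its log2 fold change was -0.84 ± 0.32 (SE; 95% interval -1.58 to -0.10) with an unadjusted p of 0.030 and an adjusted p of 0.20 over 18597 probes (limma). The remaining Lef1 probes, 2 in number, were detected on 0 of 6 arrays.

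The reading of Lef1 depended on Tg 2. With each array left out in turn, its log2 fold change ran from -0.83 to -0.32 and was negative each time. It passed when Tg 2 was left out, at -0.83 ± 0.17 (SE; adjusted p = 0.025, limma), or 0.564-fold, and in that fit the other kept probe passed too, at -1.17 ± 0.19 (SE; adjusted p = 0.017 over all probes, limma). That fit called 13.8% of all genes (7.48% higher and 6.27% lower in Tg cells), against 4.23% with 6 arrays, and of the 9 factors it called 2, Lef1 and Myb. Without Tg 1 the value was -0.32 with an adjusted p of 0.59 (limma).

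Start-site windows of Lef1 are shown because TCF-1 and LEF-1 are themselves readers of the motif TCAAAG, searched on both strands (CTTTGA on the other strand) in the 250 bases before each RefSeq start on GRCm38.p6. The first window, chr3:131110047-131110296 on the plus strand, lies before the most upstream start and does not hold it. Further Lef1 windows, chr3:131110073-131110322 and chr3:131112541-131112790, are not shown and do not hold it either. The other window shown, chr3:131156044-131156293 on the plus strand, lies before an internal start and holds it at 2 places, in capitals.
Lef1 upstream start: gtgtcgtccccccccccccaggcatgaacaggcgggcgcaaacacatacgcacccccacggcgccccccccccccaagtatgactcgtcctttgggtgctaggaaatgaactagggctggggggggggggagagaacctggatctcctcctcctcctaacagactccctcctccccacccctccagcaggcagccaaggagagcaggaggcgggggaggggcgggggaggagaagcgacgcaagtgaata
Lef1 internal start: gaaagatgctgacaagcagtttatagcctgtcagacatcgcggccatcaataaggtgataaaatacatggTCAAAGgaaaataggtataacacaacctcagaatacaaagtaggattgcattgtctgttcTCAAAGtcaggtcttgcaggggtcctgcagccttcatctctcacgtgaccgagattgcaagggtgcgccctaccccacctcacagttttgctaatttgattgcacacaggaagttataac
Of 15 windows from the 8 factors that matched the table, 2 held the motif, 1 of Lef1 and 1 of Bcl11b, beside 13.8% of all 32851 windows. A match describes letters only and says nothing of binding.

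Gata3 encodes the zinc-finger factor that acts beside TCF-1 in early T cells and represses B cell potential. It was measured by 1 probe, with 10.30, 10.63 and 10.16 in Tg cells, against 10.48, 10.38 and 10.45 in wild type. The wild-type arrays lay within 0.1 of each other, and the Tg arrays lay on both sides of them. A log2 fold change of -0.071 ± 0.18 resulted (SE; 95% interval -0.48 to 0.34; adjusted p = 0.87, limma), so that changes beyond 0.719-fold or 1.26-fold lie outside the interval. Of the 9 factors, Gata3 had the smallest range over the 6 arrays, 0.47, which 14.3% of all genes did not exceed.

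Bcl11b encodes the zinc-finger repressor that closes off the alternative fates and marks commitment. All 4 of its probes were detected on every array. The brightest had 13.47, 12.54 and 13.14 in Tg 1, 2 and 3, against 13.21, 13.24 and 13.11 in wild type. The wild-type arrays nearly coincided and Tg 2 was low. Its log2 fold change was -0.13 ± 0.22 (SE; 95% interval -0.63 to 0.37; adjusted p = 0.79, limma), and 0.12 without Tg 2. The other 3 probes had log2 fold changes of -0.14, -0.26 and -0.072, and 0 of the 4 passed. Tg 2 was not low on them: on probe 4 it was the highest array, at 9.31, against 8.64 and 8.99 in Tg 1 and Tg 3 and 9.03 to 9.09 in wild type. The probes of Bcl11b thus disagreed about Tg 2, and the brightest and the dimmest differed by a root mean square of 0.46 in their centred patterns, more than either varied (0.28 and 0.20).

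**Figure D2:**
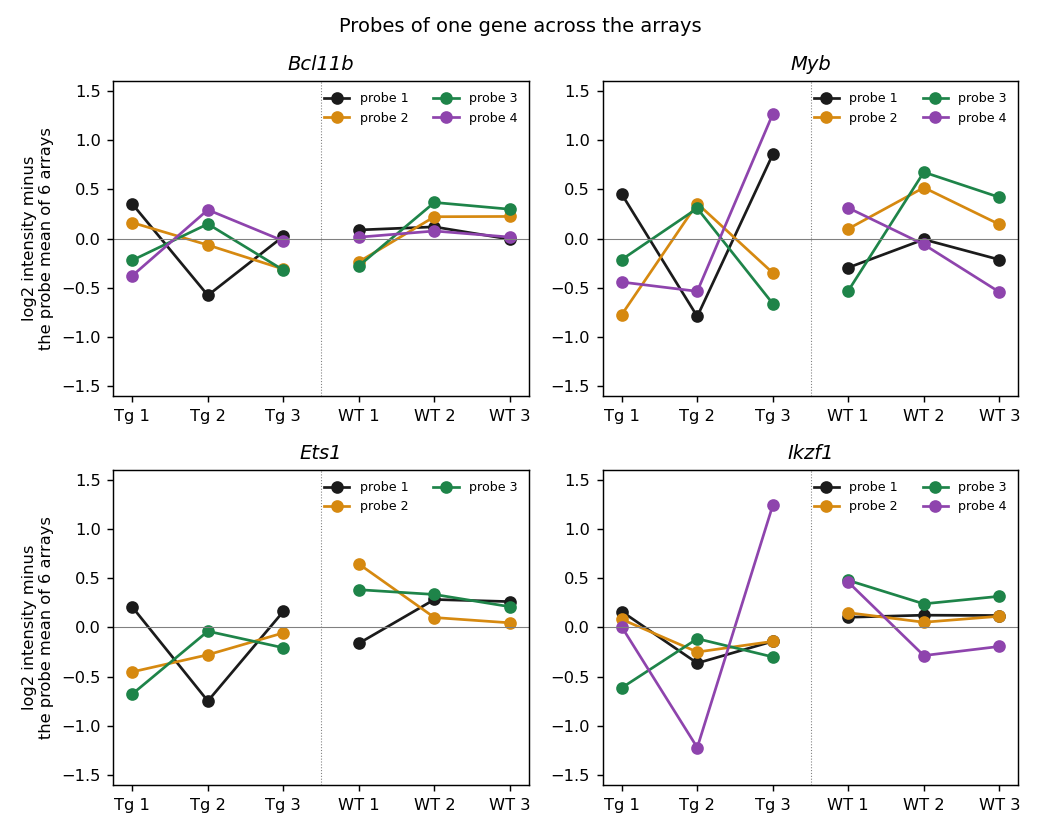
Log2 intensity minus the probe's own mean over 6 arrays (vertical axis) for the kept probes of Bcl11b, Myb, Ets1 and Ikzf1, numbered from the brightest; lines only join the arrays of 1 probe, and replicates have no order. Probes of a gene part ways at Tg 2 and on other arrays, farthest at Tg 3 for Myb and Ikzf1. At Tg 2, Bcl11b, Myb and Ets1 each have their brightest probe lowest and another probe higher. Probe 4 of Ikzf1 is also at its lowest there.

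Runx1 encodes the Runt-domain factor, used with its partner CBF-beta, that is required at the DN stages. Its 1 probe had 10.16, 9.90 and 9.96 in Tg cells, against 9.56, 9.80 and 9.96 in wild type. Tg 1 was the highest array and wild type 1 the lowest, while Tg 3 and wild type 3 were level. Between the group means lay a log2 fold change of 0.23 ± 0.18 (SE; 95% interval -0.19 to 0.66; adjusted p = 0.54, limma), and with 1 array left out it ran from 0.12 to 0.33. Runx3, which encodes the Runt factor of the CD8 and innate lineages, was measured by 1 probe that was detected on 0 of 6 arrays, so it has no fold change. Its log2 values of 4.25 to 4.34 in Tg cells and of 4.25 to 4.48 in wild type lay at the background of the arrays.

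Myb encodes c-Myb, needed for survival and for recombination in DN thymocytes, and its 4 kept probes formed pairs that disagreed. The brightest probe had 7.83, 6.59 and 8.23 in Tg 1, 2 and 3, against 7.08, 7.37 and 7.16 in wild type. Tg 1 and Tg 3 lay above and Tg 2 below every wild-type array. Its log2 fold change was 0.34 ± 0.41 (SE; 95% interval -0.60 to 1.29; adjusted p = 0.70, limma), and its range of 1.65 exceeded that of most genes, at the percentile 87.0. Probe 2 had 6.03, 7.16 and 6.45 in Tg cells, against 6.90, 7.32 and 6.94 in wild type, with Tg 1 and Tg 3 below every wild-type array. Its log2 fold change was -0.51 ± 0.33 (SE; adjusted p = 0.46 over all probes, limma).

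Probe 3 of Myb went with probe 2, with a log2 fold change of -0.38 ± 0.38, and probe 4 with the brightest, with 0.19 ± 0.49 (SE). Within each pair the centred patterns differed by a root mean square of 0.50 (probes 1 and 4) and 0.39 (probes 2 and 3), and across the pairs by 0.85 to 1.05. Without Tg 2 the brightest probe passed, at 0.83 ± 0.20 (SE; adjusted p = 0.038, limma), beside 7.48% of all genes higher in Tg cells. Probe 2 had -0.81 ± 0.23 without Tg 2 (SE; adjusted p = 0.065 over all probes, limma). The mean of the 4 probes, over 6 arrays, gave -0.087. A direction for Myb as a gene therefore cannot be given from these arrays. Transcript forms and probe sequences were not analysed here.

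Ets1 encodes the founding ETS factor, which supports beta-selection and CD3 and T cell receptor enhancers. Its brightest probe had 12.75, 11.79 and 12.70 in Tg cells, against 12.38, 12.82 and 12.80 in wild type. Tg 2 was low, and Tg 1 and Tg 3 lay among the wild-type arrays. Over all arrays the log2 fold change was -0.25 ± 0.27 (SE; 95% interval -0.87 to 0.36; adjusted p = 0.65, limma), and 0.056 without Tg 2. The dimmer kept probes of Ets1, 2 in number, both separated the groups. Probe 2 had 6.65, 6.83 and 7.05 in Tg cells, against 7.75, 7.20 and 7.15 in wild type, and probe 3 had 5.01, 5.65 and 5.48 in Tg cells, against 6.07, 6.03 and 5.90 in wild type. Their log2 fold changes were -0.53 ± 0.26 and -0.62 ± 0.22 (SE; adjusted p = 0.33 and 0.19 over all probes, limma), so neither passed. A further Ets1 probe, under a clone name, was detected on 0 arrays.

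Ikzf1 encodes Ikaros, the zinc-finger factor that restrains Notch targets and sets the threshold of pre-TCR signalling. Its brightest probe had 10.60, 10.07 and 10.29 in Tg cells, against 10.54, 10.56 and 10.56 in wild type. The wild-type arrays nearly coincided, while Tg 2 and Tg 3 lay below and Tg 1 just above them. This gave a log2 fold change of -0.23 ± 0.18 (SE; 95% interval -0.64 to 0.18; adjusted p = 0.54, limma), and probe 2, with -0.21 ± 0.17 (SE), had nearly the same pattern (root mean square difference 0.066). With each array left out in turn the value of the brightest probe ran from -0.37 without Tg 1 to -0.11 without Tg 2, and with array weights it was -0.0059. Probe 3 had 5.87, 6.36 and 6.18 in Tg cells, against 6.96, 6.72 and 6.79 in wild type. Here the groups did not overlap, and the log2 fold change was -0.69 ± 0.23 (SE; unadjusted p = 0.019, adjusted p = 0.16 over all probes, limma). Probe 4 varied most of all the factors' probes, with 6.11, 4.89 and 7.35 in Tg cells, against 6.57, 5.82 and 5.91 in wild type, and a log2 fold change of 0.015 ± 0.56 (SE).

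Ikzf3 encodes Aiolos, the Ikaros relative known to be switched on after beta-selection and abundant in B cells. It was dim: of 3 probes, 1 was detected on all 6 arrays, 1 on wild type 1 alone and 1 on none (0). The detected probe had 5.15, 5.30 and 5.48 in Tg cells, against 5.94, 5.46 and 5.83 in wild type. Tg 3 and wild type 2 were level, and the other wild-type arrays lay above all Tg arrays. Its log2 fold change was -0.43 ± 0.20 (SE; 95% interval -0.89 to 0.03; adjusted p = 0.28, limma), and this unadjusted p, 0.062, was the smallest of the 9 factors. With each array left out in turn it ran from -0.57 to -0.33. The size of the value depended on the background step: it was -0.15 without background correction, -0.17 from the deposited series values and -0.25 with an offset of 50, with adjusted p-values of 0.27, 0.21 and 0.26 (limma).

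Over the 22 kept probes, 16 log2 fold changes were negative and 6 positive. In limma over 18597 probes, 0 of the 22 passed, against 3.30% of all probes, and 3 of the 22, or 13.6%, had an unadjusted p under 0.05 (1 each of Lef1, Ets1 and Ikzf1), against 18.9% of all probes. The groups did not overlap for 4 of the 22 probes, or 18.2%, against 27.0% of all probes. Both shares lay below those of all probes, and probes of a gene share its RNA. Without Tg 2, 4 of the 22 probes passed, both kept Lef1 probes and probe 3 of Ikzf1 downward and the brightest Myb probe upward, against 11.5% of all probes.

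**Figure D3:**
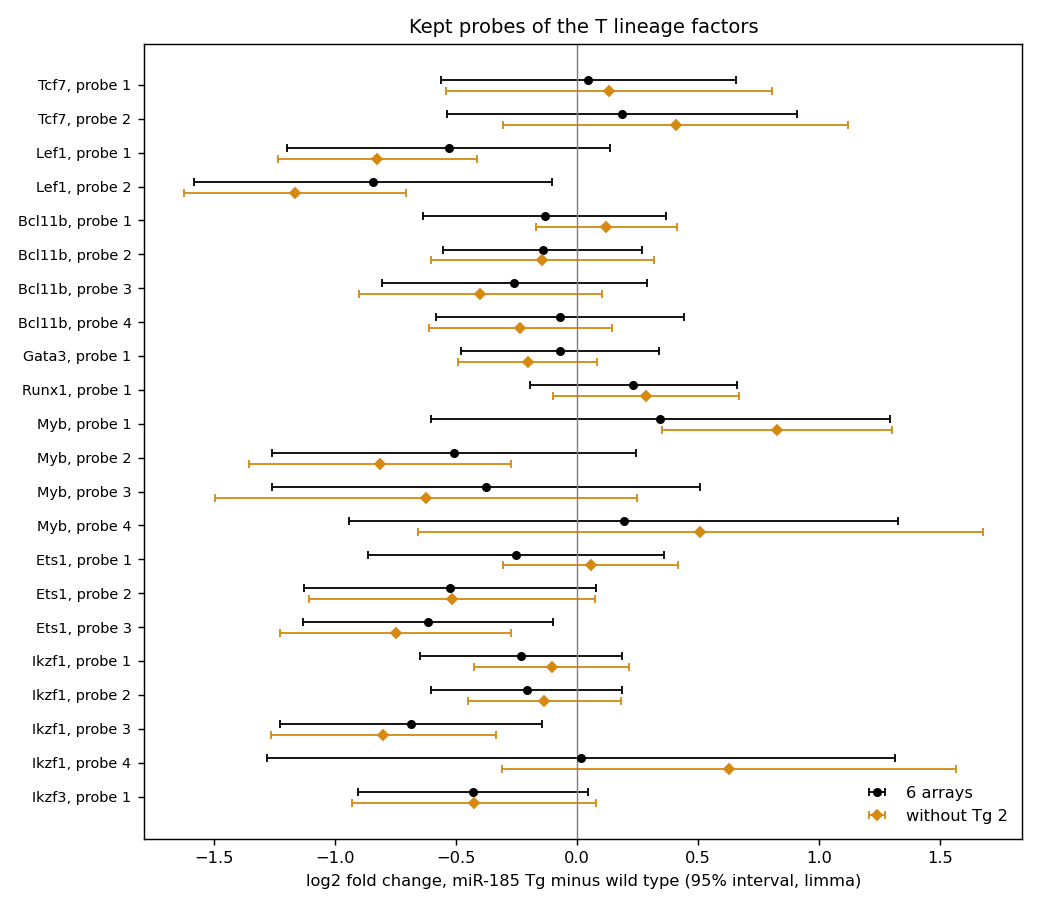
Log2 fold change of the 22 kept probes, miR-185 Tg minus wild type (horizontal axis), with 95% intervals from limma, over 6 arrays (black circles) and without Tg 2 (orange diamonds); probes of a gene are numbered from the brightest. With 6 arrays the intervals of 3 probes, from Lef1, Ets1 and Ikzf1, lie wholly below 0, none with an adjusted p under 0.05.

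**Figure D4:**
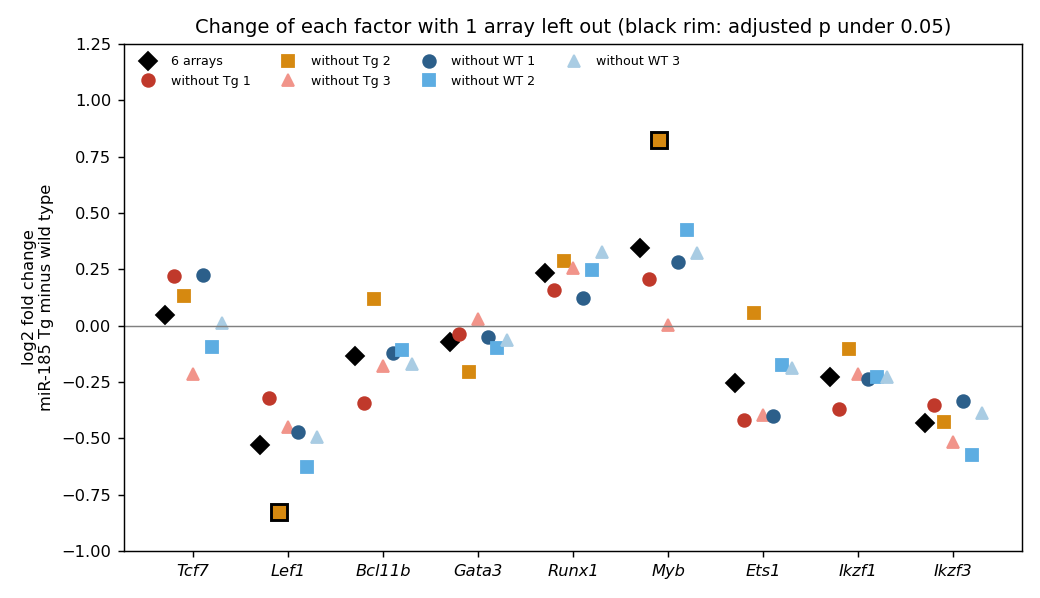
Log2 fold change of each factor's brightest kept probe (vertical axis) over 6 arrays and with each array left out in turn; a black rim marks an adjusted p under 0.05 in limma. The values of Lef1, Ikzf1 and Ikzf3 stay below 0 and those of Runx1 and Myb above 0, Lef1 and Myb pass only when Tg 2 is left out, and Tcf7, Bcl11b, Gata3 and Ets1 change sign.

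Some factors shared a pattern across the arrays, described here without a test. Bcl11b and Ikzf1 were the closest pair of brightest probes, with centred log2 values that differed by a root mean square of 0.14, followed by Bcl11b with Ets1 (0.20) and Ets1 with Ikzf1 (0.24). All 3 had Tg 2 as their lowest array on these probes. The other kept probes of Bcl11b and Ets1 did not have Tg 2 lowest. From the brightest probe of their gene they differed by 0.31 to 0.46 for Bcl11b and by 0.49 and 0.54 for Ets1. Lef1 and Myb were the farthest apart on their brightest probes, at 0.91. There Lef1 was above and Myb below its own mean in Tg 2, with the reverse in Tg 1 and Tg 3. The other Myb probes disagreed about this. Tg 2 was the highest Tg array on probes 2 and 3 (7.16 and 6.77), as for Lef1, and the lowest Tg array on probe 4 (5.83). The opposition thus holds for the brightest Myb probe and not for Myb as a gene. The relatives TCF-1 and LEF-1 did not share a pattern either, with a root mean square difference of 0.52 between Tcf7 and Lef1. Among all other genes, the closest to Bcl11b were the chromatin remodeller gene Ino80 (0.049) and the spectrin gene Sptan1 (0.050), to Ets1 the histone methyltransferase gene Kmt5b (0.048) and Tbc1d15 (0.062), and to Ikzf1 Nkd2 (0.028) and a locus without a gene name (0.026). The closest to Tcf7 were Emg1 (0.049) and a locus without a gene name (0.052), to Lef1 Zfp428 (0.063) and Mogs (0.070), and to Gata3 Dclre1b (0.034) and Dlg4 (0.041). The closest to Runx1 were Zbtb24 (0.051) and another such locus (0.063), to Myb Acadsb (0.064) and Syap1 (0.105), and to Ikzf3 Nop2 (0.061) and Cfap20dc (0.064). These distances describe 6 arrays, of which Tg 2 stands apart, and nothing is drawn from them about shared control.

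Relatives of the factors were read next to them. Of 12 measured family relatives, 1 rose and 1 fell, against 2.55% and 1.68% of all genes in each direction. Tcf7l2, which encodes TCF-4, another TCF/LEF protein, best known from intestinal stem cells, rose by 1.68 ± 0.26 on the log2 scale (SE; adjusted p = 0.018, limma), or 3.20-fold. It had 7.47, 8.17 and 7.47 in Tg cells, against 6.12, 5.97 and 6.00 in wild type, with Tg 2 the highest. Of its other 4 probes, 1 was detected on 3 Tg arrays and 1 wild-type array, at 0.52 ± 0.16 on the log2 scale (SE; adjusted p = 0.125 over all probes, limma), and 3 were detected on 0 arrays. Bcl11a, the paralogue of Bcl11b that is used in B cells and progenitors, fell by 1.47 ± 0.30 (SE; adjusted p = 0.039, limma). It had 5.95, 5.76 and 6.56 in Tg cells, against 7.15, 7.77 and 7.76 in wild type, and its other detected probe fell by 1.82 ± 0.31 (SE; adjusted p = 0.026 over all probes, limma). The median of the 12 relatives was -0.18. Without Tg 1, or without wild type 1, 2 or 3 in turn, 0 of the 12 relatives passed. Those fits called few genes at all, 49, 1, 47 and 2 of 12426 in that order, so the loss was not particular to the relatives.

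**Figure D5:**
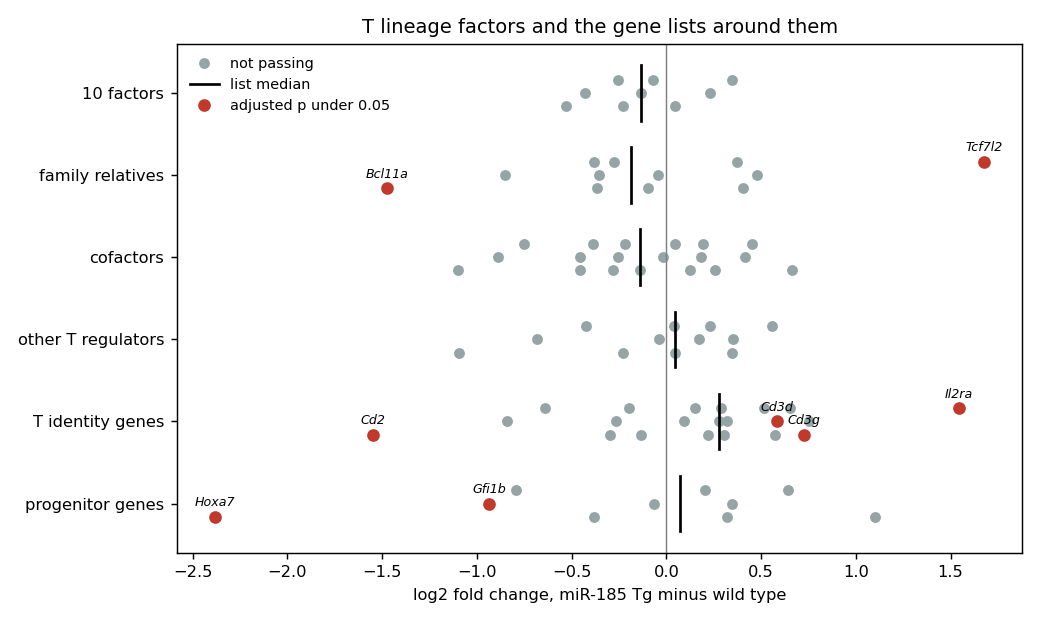
Log2 fold change, miR-185 Tg minus wild type (horizontal axis), of the 9 measured T lineage factors and of 5 gene lists around them; each point is a gene, red points passed at an adjusted p under 0.05 in limma, and the black bar is the list median. Points at different heights within a list are spread for legibility.

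Cofactors of the T lineage factors did not pass, with 0 of 19 called by limma, against 4.23% of all genes, and a median of -0.14. At an unadjusted p under 0.05, 3 were lower and 3 higher, against 20.0% of all genes in either direction (limma). The list holds beta-catenin and Groucho partners of TCF-1, the RUNX partner Cbfb and the NuRD complex that Ikaros and BCL11B recruit. The smallest p-values were those of the NuRD genes Rbbp4, Hdac2 and Rbbp7, with log2 fold changes of -0.89 ± 0.31, -0.46 ± 0.17 and -1.098 ± 0.41 (SE; adjusted p = 0.16, 0.17 and 0.18, limma). Cbfb had -0.26 ± 0.14 and Ctnnb1, beta-catenin, -0.22 ± 0.18 (SE). Of 12 other T cell regulators 0 passed in limma. At an unadjusted p under 0.05, 2 were lower and 0 higher, against the same 20.0% of all genes. The median of the 12 regulators was 0.045. These included the chromatin organiser gene Satb1 at -0.68 ± 0.26 and the receptor gene Notch1 at 0.35 ± 0.17 (SE; adjusted p = 0.20 and 0.30, limma).

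Genes that mark T cell identity, several of them known targets of TCF-1, GATA3, RUNX1 and BCL11B, had a median of 0.28 over 21 measured members, with 14 positive. In limma 3 rose and 1 fell, against 2.55% and 1.68% of all genes, whose median was -0.0014. Il2ra, which encodes CD25, a marker the cells were sorted on, rose by 1.54 ± 0.23, Cd3g and Cd3d, which encode CD3 gamma and delta, by 0.72 ± 0.12 and 0.58 ± 0.11, and the adhesion gene Cd2 fell by 1.55 ± 0.31 (SE; adjusted p = 0.016, 0.023, 0.028 and 0.036, limma). Of 10 measured progenitor and alternative-lineage genes, 0 rose and 2 fell, against the same shares of all genes. Their list median was 0.069. The homeobox gene Hoxa7 fell by 2.38 ± 0.21 (SE; adjusted p = 0.0062, limma). Gfi1b, an erythroid and megakaryocyte repressor gene, was at least 1.67-fold lower (adjusted p = 0.014, limma). It was detected on 0 Tg arrays and entered the tests only through the 3 wild-type arrays. With detection required on all 6 arrays Gfi1b was not tested, and Hoxa7 alone fell. Without wild type 1 or without wild type 3, 0 genes of these 2 lists passed, beside 1 and 2 of all 12426 genes. Without Tg 1 or without wild type 2, 1 gene, Hoxa7, did, beside 49 and 47 of all genes.

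Markers of the sorted stage were present on every array. All 6 DN3 markers were detected on all 6 arrays, and their summed intensity was 6995 to 10322 in Tg cells and 3889 to 4854 in wild type. Il2ra and Dtx1, 2 of the 6, rose, against 2.55% of all genes. The log2 fold change was positive for 5 of the 6 and negative for 1, Rag1, at -0.64 ± 0.37 (SE; adjusted p = 0.40, limma). Of the markers of other cells on the array, 2 of 5 for later T cell stages, 1 of 5 for B cells, 1 of 5 for NK and innate lymphoid cells, 3 of 4 for gamma-delta T cells, 3 of 6 for myeloid and 2 of 5 for erythroid cells were detected on 3 or more arrays. The B cell genes Pax5 and Ebf1, the NK and innate genes Ncr1, Klrb1c, Il2rb and Il1rl1, the later T cell genes Cd8a and Ccr9, the myeloid genes Itgam and Itgax, and the erythroid gene Slc4a1 were detected on 0 arrays. Nkg7, a cytotoxic granule gene, and Blk, a kinase gene of B and gamma-delta T cells, rose by 1.57 and 1.79, and Cd163l1, a gamma-delta T cell gene, fell by 1.75 on the log2 scale (adjusted p = 0.015, 0.0064 and 0.043, limma). Of the 3 measured myeloid markers none passed, and they went different ways. Lyz2 had 1.45 ± 0.45 and Csf1r -0.0505 ± 0.13 on the log2 scale (SE; adjusted p = 0.12 and 0.88, limma). S100a8 was detected on 0 Tg and 3 wild-type arrays. The summed intensity of the erythroid markers was 1033 to 2152 in Tg cells and 458 to 14995 in wild type, highest in wild type 2 and 3, and that of the myeloid markers was 272.7 to 485.7 in Tg cells and 184.8 to 512.9 in wild type. For later T cell stages it was 1514 to 2711 in Tg cells and 1925 to 2342 in wild type, and for B cells 462.2 to 589.7 in Tg cells and 500.5 to 701.4 in wild type. For NK and innate cells it was 2525 to 3512 in Tg cells and 792.0 to 1165 in wild type, and Nkg7 was the only detected gene in this sum. For gamma-delta T cells it was 991.6 to 1100 in Tg cells and 956.5 to 1141 in wild type. That sum joins genes that went different ways: Blk rose, Cd163l1 fell and Sox13 had -1.31 ± 0.38 (SE; adjusted p = 0.10, limma). The part of other cells in the values of the T lineage factors was not tested.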

How the data were processed

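Processed values of 6 arrays were used, 3 of miR-185 Tg and 3 of wild-type DN3 cells, grouped by sample title. Per the file headers, the deposited probe intensities are bead means written by GenomeStudio 1.9.0 without normalization, with a detection score from 0 to 1, deposited as a fraction and read as 1 minus the detection p-value. The number of beads and the bead SD (other columns per the file headers) gave bead errors. The authors' series values are log2 of a deposited gene-level intensity table (largest difference 6.3e-07) and served as an alternative. Whether the authors subtracted background is not stated in the headers or labels.

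Intensities were corrected with normexp from detection p-values (offset 16) and quantile normalized (limma 3.58.1, R 4.3.3). Of 45281 probes, 18597 detected on at least 3 arrays were kept, and the brightest kept probe stood for each of 12426 genes. Array names were matched to symbols and unique synonyms of the RefSeq gene table of GRCm38.p6; of 30774 names, 15991 matched a symbol and 5826 a unique synonym. Tests were lmFit and eBayes with a trend, adjusted by Benjamini-Hochberg over all genes, and in a separate fit over all probes. The scripts were tested on simulated data. The factors, lists and rules were chosen with earlier results of these data known. Genes named beside the factors are every called gene of a list or, where none was called, the 3 with the smallest p (1 of these is not reported here), and the 2 genes of the closest pattern to each factor; Cbfb, Ctnnb1 and further marker genes were named after their values were seen. Alternatives covered background, offset, normalization, series values, filter, variance model, array weights, replicate block, probe rule, threshold, each array left out, and wild type 2 and 3 averaged.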

Additional observations from a re-analysis of the deposited data

How the results depend on the processing

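Across 19 alternatives for each of 9 factors, 157 of 171 log2 fold changes kept their sign and stayed short of the threshold, 9 changed sign and 5 passed. The count of called factors, 0 of 9, was 0 under every alternative except array weights (3: Lef1 at -0.89, Myb at 0.61 and Ikzf3 at -0.54) and the loss of Tg 2 (2: Lef1 and Myb). With array weights 4472 of all 12426 genes were called. With each array left out in turn, called genes ran from 1 (without wild type 1) to 1709 (without Tg 2), called factors from 0 to 2, called probes of the factors from 0 to 4, and the log2 fold changes from -0.21 to 0.23 for Tcf7, -0.83 to -0.32 for Lef1, -0.34 to 0.12 for Bcl11b, -0.20 to 0.0305 for Gata3, 0.0026 to 0.83 for Myb, -0.42 to 0.056 for Ets1, 0.12 to 0.33 for Runx1, -0.37 to -0.11 for Ikzf1 and -0.57 to -0.33 for Ikzf3. Sign changes outside these were Tcf7 with array weights (-0.12) and with wild type 2 and 3 averaged (-0.043), Bcl11b with array weights (0.25), and Myb with the mean of its probes (-0.087). Among the other 13 kept probes, chosen for this after seeing the data, 11 of 221 values changed sign and 10 passed, 8 of the 10 with array weights. Under that setting 12 of the 22 probes passed, beside 4472 of 12426 genes, and its share over all probes is not given here. Left-out arrays moved probe 2 of Tcf7 from -0.16 to 0.41, probe 4 of Bcl11b from -0.24 to 0.10, probe 4 of Myb from -0.39 to 0.51 and probe 4 of Ikzf1 from -0.60 to 0.63. Probe 4 of Myb was -0.0055 with array weights, and probe 4 of Ikzf1 was -0.027 with median scaling, -0.054 with cyclic loess and -0.10 with wild type 2 and 3 averaged.

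The 526 genes called in all became 310 with median scaling, 312 without a filter on dim probes, 36 with wild type 2 and 3 averaged and 1049 at an adjusted p under 0.1. For the lists, left-out arrays gave 0 to 3 called family relatives, 0 to 2 cofactors and 0 to 1 other T regulators. They gave 0 to 7 T identity genes and 0 to 2 progenitor genes, beside 1 to 1709 of all 12426 genes. Array weights gave 5, 7, 4, 12 and 4 for these lists in that order, beside 4472 of 12426 genes. With wild type 2 and 3 averaged, 0 family relatives, 0 T identity genes and 1 progenitor gene passed. No trend left 2 T identity genes, detection on all 6 arrays left 1 progenitor gene, and an adjusted p under 0.1 gave 8 T identity genes and 1 other T regulator. The cause was not tested. The deviations of same-numbered arrays correlated at -0.25, 0.11 and -0.22 across genes. Deviations within a group of 3 are tied to each other, and Tg 2 stands apart, so these values cannot settle whether the replicate numbers pair the arrays. With the replicate block, 264 genes passed, 0 of the 9 factors, 1 family relative and 2 T identity genes. The number of arrays, 3 a group, limits the precision, and the intervals given are those of the fit over 6 arrays.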
